A study of Mus musculus with 4 samples.

Results

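Open chromatin near the ends of neighbouring protein-coding genes, as at shared bidirectional promoters, was described. The cells were female mouse fetal germ cells with and without a conditional deletion of Gata2. A member was any ATAC-seq interval on the autosomes or X that came within 1 kb of the ends of at least 2 protein-coding genes whose annotated bodies do not overlap (RefSeq gene table, GRCm38.p6). The Gata2cKO list held 1415 such intervals of 44139 (3.21%, 95% Wilson interval 3.05 to 3.37), and the Gata2WT list held 1436 of 49394 (2.91%, 2.76 to 3.06). Among intervals within 1 kb of any coding gene end, members were 10.1% of 13998 in the Gata2cKO list and 9.96% of 14414 in the Gata2WT list. The rule used no signal value. It measured distance from the edges of an interval, so a wide interval came within reach of 2 genes more easily.

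ATAC-seq marks accessible DNA by letting the Tn5 transposase insert adapters into it. Both genotypes came from C57BL/6J mice, from crosses of Gata2flox/+ Prdm1-Cre males with Gata2flox/flox females. Gata2cKO embryos lose floxed Gata2 where Prdm1 drives Cre, which in the embryo includes primordial germ cells and also other cells that express Prdm1. The labels do not give the alleles of the Gata2WT embryos. Female embryos were taken at E14.5 (E for embryonic day), ovaries were dissociated with trypsin, and germ cells were enriched with beads against SSEA1, a carbohydrate antigen on the surface of germ cells. The labels name the cell type as ovarian cells. There were 2 samples per genotype, deposited as 1 combined peak list each.

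When the starts of adjacent genes on opposite strands lie close together, the DNA between them can serve as a promoter for both, and such head-to-head promoters usually lie in CpG islands and lack TATA boxes. In mammals they are known for genes of DNA repair, mitochondria, histones and other functions that many cell types use. A gap between the start of one gene and the end of the next (head to tail) holds 1 promoter, and a gap between the ends of both (tail to tail) holds none by annotation.

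With 1 list per genotype there was no replicate error, so no test between genotypes was made, and the 95% Wilson intervals in parentheses cover counting error alone. Depth was read from the lists themselves: the genome background was 2.01 fragments in the Gata2cKO list and 2.19 in the Gata2WT list, and the median summit pileup, the number of fragments at the highest point of an interval, was 19 in both. Gata2 itself had no gene-end interval in the Gata2cKO list and a weak one in the Gata2WT list, on chromosome 6 from 88193999 to 88194533 with a −log10 q of 4.27; the deleted part of the gene is not labelled, so this is no check of the genotypes. Gene-end intervals were present at 8 of 9 germ cell markers in the Gata2cKO list and 9 of 9 in the Gata2WT list, and at 10 of 10 markers of pregranulosa and other supporting cells in each list. They were present at 5 of 7 blood and 3 of 6 endothelial markers in each list, and at 3 of 5 interstitial markers in the Gata2cKO list and 4 of 5 in the Gata2WT list. The same count over all coding genes was not made. Of coding genes outside member pairs, 8762 had an interval within 1 kb of their start in both lists and 6221 did not. Chromatin of supporting cells therefore cannot be told apart from that of germ cells by these markers.

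The promoters below are those of head-to-head pairs from the meiosis, DNA repair and mitochondrial lists. They were chosen to show how close together such starts lie and which motifs lie near them. Each is 300 bases on the gene's own strand, 5′ to 3′, with the annotated start of the named gene at base 251 (RefSeq, GRCm38.p6). Capitals mark the core letters of an ETS factor motif (CCGGAAG or its reverse complement CTTCCGG), an NRF1 motif (GCATGCGC, here as its reverse complement), a YY1 motif (AAGATGGC, here as its reverse complement) or the palindrome CTCGCGAG. Rad51c and Tex14 are given both, because their windows cover largely the same DNA read from opposite strands.
Rad51c: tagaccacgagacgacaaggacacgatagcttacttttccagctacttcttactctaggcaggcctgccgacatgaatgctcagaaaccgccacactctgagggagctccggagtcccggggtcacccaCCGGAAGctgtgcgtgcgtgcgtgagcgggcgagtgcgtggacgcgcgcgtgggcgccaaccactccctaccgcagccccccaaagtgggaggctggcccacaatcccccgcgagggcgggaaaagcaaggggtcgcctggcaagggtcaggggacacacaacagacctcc
Tex14: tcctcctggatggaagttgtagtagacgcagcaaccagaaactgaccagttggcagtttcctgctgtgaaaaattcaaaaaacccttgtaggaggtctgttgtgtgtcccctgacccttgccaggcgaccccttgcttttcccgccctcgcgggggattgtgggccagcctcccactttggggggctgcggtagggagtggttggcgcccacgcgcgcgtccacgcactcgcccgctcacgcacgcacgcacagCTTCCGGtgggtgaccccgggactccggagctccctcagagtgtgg
Trip13: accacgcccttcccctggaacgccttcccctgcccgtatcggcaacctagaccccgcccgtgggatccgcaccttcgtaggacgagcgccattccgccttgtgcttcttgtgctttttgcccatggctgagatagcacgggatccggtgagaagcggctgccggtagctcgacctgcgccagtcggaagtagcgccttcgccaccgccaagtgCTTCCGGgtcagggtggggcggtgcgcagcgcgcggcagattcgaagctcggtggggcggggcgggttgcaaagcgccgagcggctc
Smc1b: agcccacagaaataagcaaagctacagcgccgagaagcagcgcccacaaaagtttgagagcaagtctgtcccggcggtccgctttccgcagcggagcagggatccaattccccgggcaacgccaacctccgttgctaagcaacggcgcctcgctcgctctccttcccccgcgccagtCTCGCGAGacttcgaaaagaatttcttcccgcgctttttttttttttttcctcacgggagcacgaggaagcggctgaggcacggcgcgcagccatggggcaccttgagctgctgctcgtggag
Helq: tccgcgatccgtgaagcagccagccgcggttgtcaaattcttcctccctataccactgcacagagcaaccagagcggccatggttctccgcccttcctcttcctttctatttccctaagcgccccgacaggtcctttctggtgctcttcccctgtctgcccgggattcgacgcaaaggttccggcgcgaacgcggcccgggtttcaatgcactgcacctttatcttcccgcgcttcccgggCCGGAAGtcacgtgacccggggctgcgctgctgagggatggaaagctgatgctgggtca
Atm: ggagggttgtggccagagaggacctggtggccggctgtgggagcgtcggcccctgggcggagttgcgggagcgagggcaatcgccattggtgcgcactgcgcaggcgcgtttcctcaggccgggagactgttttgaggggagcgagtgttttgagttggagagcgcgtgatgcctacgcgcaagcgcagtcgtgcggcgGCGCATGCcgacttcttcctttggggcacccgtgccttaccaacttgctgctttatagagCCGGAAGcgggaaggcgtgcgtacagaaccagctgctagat
Palb2: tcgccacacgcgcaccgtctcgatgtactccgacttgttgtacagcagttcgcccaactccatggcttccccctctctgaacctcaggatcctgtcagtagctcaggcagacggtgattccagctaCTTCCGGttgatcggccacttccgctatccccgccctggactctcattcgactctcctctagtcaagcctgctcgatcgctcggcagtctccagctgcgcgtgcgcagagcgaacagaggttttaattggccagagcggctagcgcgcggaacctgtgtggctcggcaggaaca
Mrps12: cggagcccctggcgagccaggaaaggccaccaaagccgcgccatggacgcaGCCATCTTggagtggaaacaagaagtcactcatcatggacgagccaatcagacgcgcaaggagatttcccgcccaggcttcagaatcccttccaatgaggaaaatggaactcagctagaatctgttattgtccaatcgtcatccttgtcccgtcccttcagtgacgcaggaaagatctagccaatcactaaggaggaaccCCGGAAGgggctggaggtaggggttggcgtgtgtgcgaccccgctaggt

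These windows lie on chr11:87404905-87405204 (Rad51c, minus strand), chr11:87404815-87405114 (Tex14, plus strand), chr13:73937718-73938017 (Trip13, minus), chr15:85131908-85132207 (Smc1b, minus), chr5:100798551-100798850 (Helq, minus), chr9:53536622-53536921 (Atm, minus), chr7:122132897-122133196 (Palb2, minus) and chr7:28741772-28742071 (Mrps12, minus). The start of Tex14 falls at base 140 of the Rad51c window, that of Brd9 at base 207 of the Trip13 window, that of Ribc2 at base 110 of the Smc1b window and that of Mrps18c at base 92 of the Helq window. In the same way Dctn5 starts at base 156 of the Palb2 window and Sars2 at base 104 of the Mrps12 window. The start of Npat used here lies outside the Atm window. The ETS letters of Rad51c span bases 130 to 136 of its window and those of Tex14 span bases 255 to 261 of its own, which is the same stretch of DNA. A motif match is a description of letters and does not show that a factor binds there.

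Most head-to-head pairs had an interval near both ends in both genotypes, and most tail-to-tail pairs had none in either list. Of 571 neighbouring head-to-head pairs with facing ends at most 1 kb apart, 552 had an interval within 1 kb of both ends in the Gata2cKO list (96.7%, 94.9 to 97.9) and 553 in the Gata2WT list (96.8%, 95.1 to 98.0). For 450 head-to-tail pairs the counts were 299 in the Gata2cKO list (66.4%, 62.0 to 70.7) and 306 in the Gata2WT list (68.0%, 63.6 to 72.1). For 428 tail-to-tail pairs they were 49 in the Gata2cKO list (11.4%, 8.77 to 14.8) and 64 in the Gata2WT list (14.95%, 11.9 to 18.6). The strand of at least 1 gene was not given for another 582 pairs, of which 321 had an interval in the Gata2cKO list and 320 in the Gata2WT list. The order of the layouts was the same at every gap width: with facing ends under 100 bp apart, 98.2% of head-to-head pairs had an interval in either list, against 19.8% of tail-to-tail pairs in the Gata2cKO list and 23.5% in the Gata2WT list. At gaps of 500 to 1000 bp it was 92.7% of head-to-head pairs in either list, against 6.41% of tail-to-tail pairs in the Gata2cKO list and 8.97% in the Gata2WT list.

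**Figure D1:**
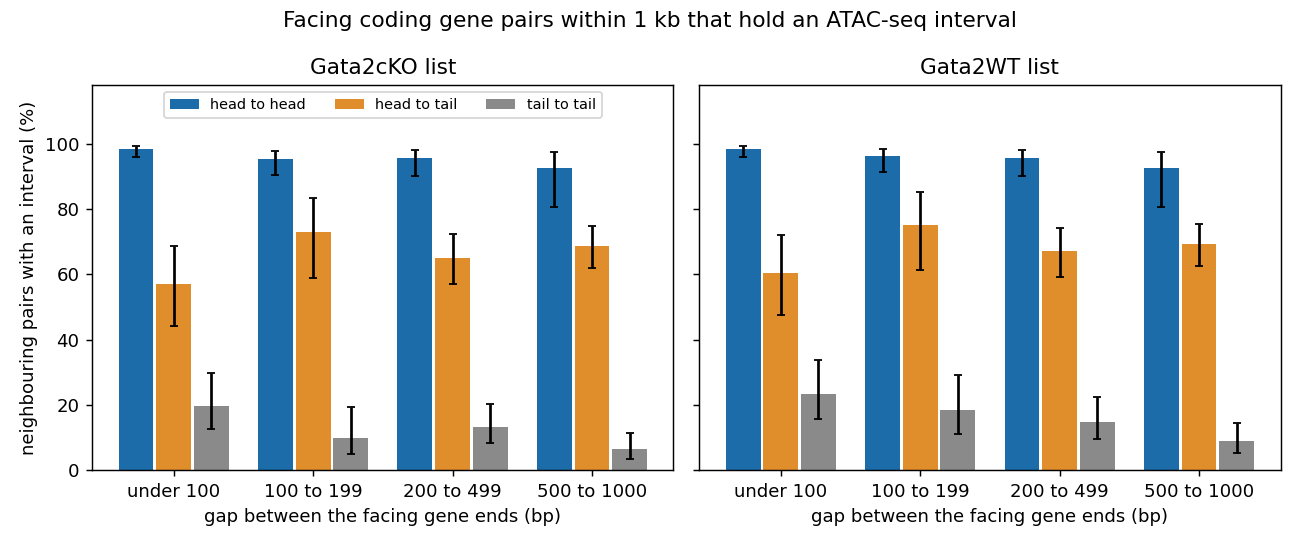
Share of neighbouring coding gene pairs with facing ends at most 1 kb apart that had an interval within 1 kb of both ends (y axis, percent), by gap width in bp (x axis) and layout (colours), in the Gata2cKO list (left) and the Gata2WT list (right). Bars are shares and error bars are 95% Wilson intervals; head-to-head pairs lie between 92.7% and 98.2% at every gap width, and tail-to-tail pairs at most at 19.8% (Gata2cKO) and 23.5% (Gata2WT).

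In all, members reached 1524 pairs of non-overlapping genes, 1395 of them in both lists, 50 in the Gata2cKO list alone and 79 in the Gata2WT list alone. A member reached exactly 2 coding genes in 96.8% of cases in each list. Not all lay between the genes. Of members that overlapped an interval of the other list, 56.0% (Gata2cKO) and 56.5% (Gata2WT) touched an end of both genes. In 20.8% (Gata2cKO) and 20.4% (Gata2WT) the farther end was over 500 bp away. The Pcdhgc5/Diaph1 interval reached 25 genes, since the clustered gamma protocadherins share a common 3′ end in the annotation. The Tomm6/Prickle4 interval, at the gene of a subunit of the mitochondrial import pore, reached 5.

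Members were strong within their list. Their median −log10 q was 45.8 (quartiles 21.7 and 66.3) in the Gata2cKO list and 55.7 (27.4 and 83.2) in the Gata2WT list, against 27.4 in the Gata2cKO list and 33.0 in the Gata2WT list for other gene-end intervals. Their median width was 953 bp (Gata2cKO) and 992.5 bp (Gata2WT), against 873 bp (Gata2cKO) and 913 bp (Gata2WT) for other gene-end intervals. Tail-to-tail members were narrower, at 642.5 bp (Gata2cKO) and 662.5 bp (Gata2WT). Width is partly built into membership, since distance is measured from the edges of an interval. The median summit pileup of members was 75 fragments in the Gata2cKO list and 89.5 in the Gata2WT list. Head-to-head members had a median −log10 q of 56.8 in the Gata2cKO list and 73.8 in the Gata2WT list. Other gene-end intervals near the start of 1 gene, a closer counterpart than gene ends at large, had 32.3 in the Gata2cKO list and 39.4 in the Gata2WT list. Head-to-tail members had 37.9 in the Gata2cKO list and 44.2 in the Gata2WT list, and tail-to-tail members had 8.86 in Gata2cKO and 6.95 in Gata2WT. Values of the lists were not scaled to each other, so no difference between genotypes is read from them.

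**Figure D2:**
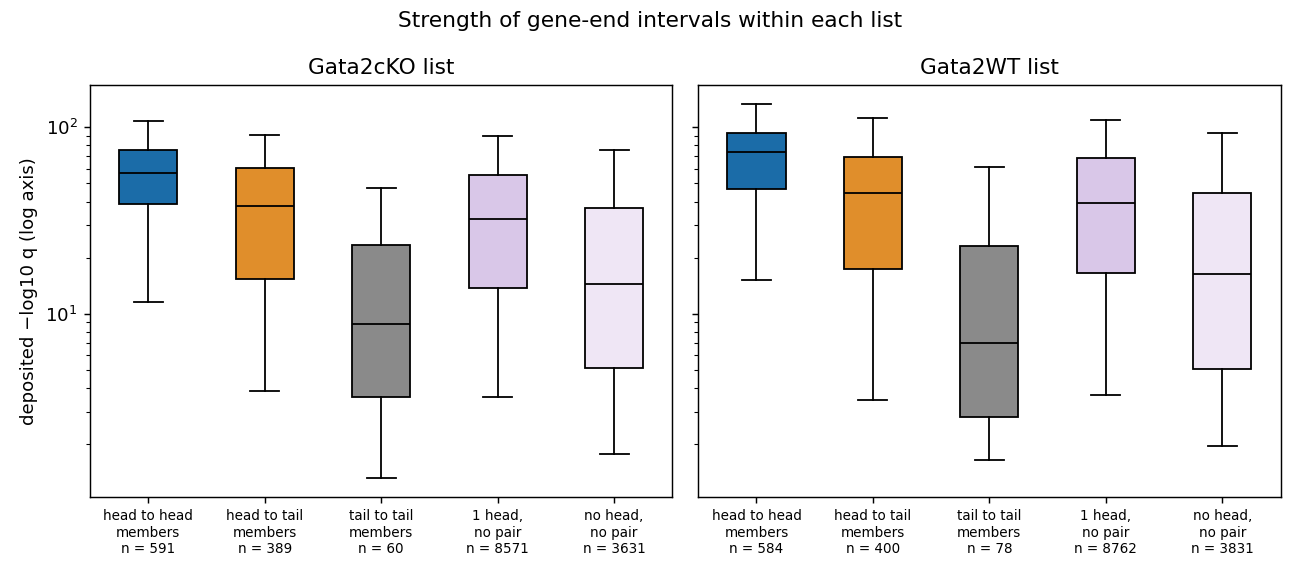
Deposited −log10 q (y axis, log scale) of member intervals by layout and of other gene-end intervals near the start of 1 gene or of none (x axis), in the Gata2cKO list (left) and the Gata2WT list (right). Boxes give quartiles and median, whiskers the 5th and 95th percentiles; head-to-head members have the highest median in each list (56.8 in Gata2cKO, 73.8 in Gata2WT) and tail-to-tail members the lowest (8.86 in Gata2cKO, 6.95 in Gata2WT).

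Members made up a larger share of the strongest intervals than of all intervals. They were 74 of the top 441 intervals by strength in the Gata2cKO list (16.8%, 13.6 to 20.6) and 82 of the top 494 in the Gata2WT list (16.6%, 13.6 to 20.1), the top 1% of each list. No tail-to-tail member was among these. The 3 strongest members of the Gata2cKO list were those of Tomm40/Nectin2 (168), Tmem129/Tacc3 (160) and Prr11/Ska2 (149). TOMM40 is the channel of the mitochondrial import pore, NECTIN2 a cell adhesion protein, and TACC3 and SKA2 are spindle and kinetochore proteins. The same intervals had −log10 q of 183, 188 and 136 in the Gata2WT list. In the Gata2WT list the strongest members were those of Cep170/Sdccag8 (200) and Pheta2/Smdt1 (190), with 135 and 138 in the Gata2cKO list. CEP170 and SDCCAG8 are proteins of the centrosome, and SMDT1 is a subunit of the mitochondrial calcium uniporter. Among the widest members was that of Peg3/Usp29, an imprinted head-to-head pair, at 2395 bp in the Gata2cKO list and 2275 bp in the Gata2WT list.

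The interval of a head-to-head pair usually spanned the whole gap. Of head-to-head members, 507 of 591 (85.8%) covered the gap from end to end in the Gata2cKO list and 512 of 584 (87.7%) in the Gata2WT list, where the median gap was 103 bp in the Gata2cKO list and 102.5 bp in the Gata2WT list. The highest summit lay a median of 118.5 bp from the centre of the gap in the Gata2cKO list and 127.75 bp in the Gata2WT list. It lay inside the gap itself in 31.5% of head-to-head members of each list, so that in most it stood beyond one of the facing starts, over one of the genes. The share of intervals with several summits did not follow gap width throughout. It was 27.6% in the Gata2cKO list and 29.2% in the Gata2WT list at gaps under 100 bp. At gaps of 500 to 1000 bp it was 53.5% in the Gata2cKO list and 54.8% in the Gata2WT list, and at wider gaps 5 of 20 intervals in the Gata2cKO list and 5 of 16 in the Gata2WT list held several.

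Head-to-tail members sat at the head. The summit was nearer the start of one gene than the end of the other in 352 of 389 (90.5%) in the Gata2cKO list and 357 of 400 (89.3%) in the Gata2WT list. Its median distance was 136 bp from the head and 694 bp from the tail in the Gata2cKO list, and 149.5 bp from the head and 685 bp from the tail in the Gata2WT list. In the Gata2cKO list an annotated start of a gene, coding or not, lay inside 96.8% of head-to-head, 86.4% of head-to-tail and 21.7% of tail-to-tail members. In the Gata2WT list these shares were 96.1%, 86.5% and 19.23%. Tail-to-tail members that held such a start had a median −log10 q of 32.9 (13 intervals) in the Gata2cKO list and 38.4 (15 intervals) in the Gata2WT list. Those without had 5.67 (47 intervals) in the Gata2cKO list and 5.02 (63 intervals) in the Gata2WT list. The strongest tail-to-tail member in each list was that of Rps21/Cables2, with −log10 q of 66.2 (Gata2cKO) and 92.0 (Gata2WT). Rps21 encodes a protein of the small ribosomal subunit. That interval lay outside the 94 bp gap, on the Rps21 side. Its edge was 756 bp (Gata2cKO) and 691 bp (Gata2WT) from the Cables2 end. Only 2 tail-to-tail members in each list covered their gap.

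**Figure D3:**
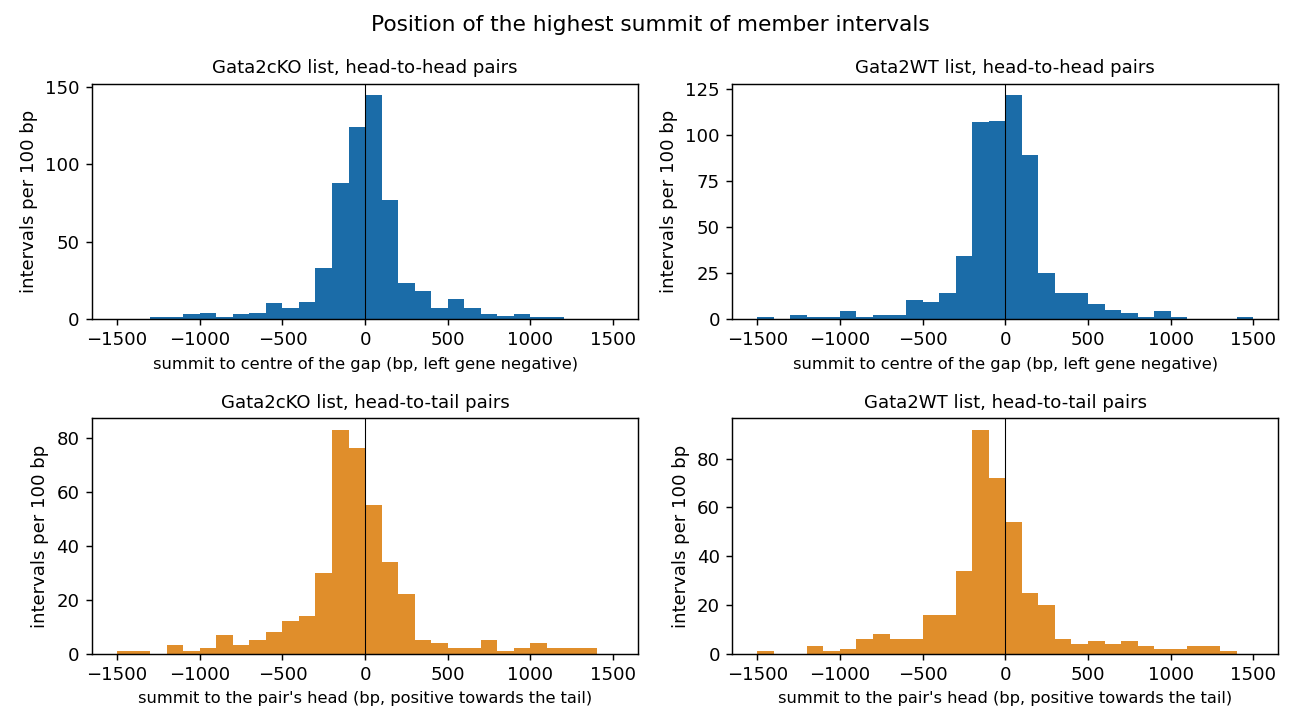
Position of the highest summit of member intervals (x axes, bp) relative to the centre of the gap for head-to-head pairs (top) and to the head of the pair for head-to-tail pairs (bottom, positive towards the tail), in the Gata2cKO list (left) and the Gata2WT list (right). Bars count intervals per 100 bp; the median distance is 118.5 bp (Gata2cKO) and 127.75 bp (Gata2WT) from the gap centre in the top panels, and 136 bp (Gata2cKO) and 149.5 bp (Gata2WT) from the head in the bottom panels.

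Meiotic genes were found at members more often than coding genes at large. Of 55 genes on the meiosis list, 18 had a member interval (32.7%, 21.8 to 45.9), against 2783 of 21627 coding genes (12.9%, 12.4 to 13.3). All 18 had one in both lists, as did 2570 of the 2783 coding genes with a member. Their 18 facing pairs comprised 7 head-to-head and 7 head-to-tail pairs and 4 whose strand was not given. The list was written with results of these data known, and it is described by its count and not tested.

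The strongest of these in the Gata2cKO list was the head-to-head pair Trip13/Brd9 with a gap of 5 bp, at −log10 q of 102 in the Gata2cKO list and 104 in the Gata2WT list. TRIP13 is the ATPase that removes HORMA domain proteins from synapsed chromosomes, and BRD9 is a bromodomain subunit of a BAF chromatin remodelling complex. The interval ran from 73937176 to 73938130 on chromosome 13 in the Gata2cKO list and from 73937289 to 73938306 in the Gata2WT list, with summit pileups of 133 fragments (Gata2cKO) and 137 fragments (Gata2WT). Rad51c/Tex14 joins a gene of homologous recombination to a component of germ cell intercellular bridges. Its gap was 58 bp, and its −log10 q was 55.1 in the Gata2cKO list and 65.4 in the Gata2WT list. For Smc1b/Ribc2, the pair of the meiotic cohesin SMC1B, the values were 25.2 (Gata2cKO) and 35.6 (Gata2WT). For Helq/Mrps18c, a repair helicase and a mitochondrial ribosomal protein, they were 45.5 (Gata2cKO) and 67.2 (Gata2WT). All 4 intervals covered their gap in both lists.

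Other meiotic members followed the same layouts. Rec114/Hcn4, which sets a factor of meiotic double-strand break formation against a pacemaker ion channel, had −log10 q of 38.5 in the Gata2cKO list and 64.2 in the Gata2WT list. Bhmg1/Fbxo46, in which Bhmg1 encodes MEIOSIN, the partner of STRA8, had 2 intervals in each list, 1 near each start, in a gap of 1327 bp. Those near Bhmg1 had 47.5 in the Gata2cKO list and 82.0 in the Gata2WT list, and those near Fbxo46 had 31.8 (Gata2cKO) and 34.6 (Gata2WT). Of the 7 head-to-tail pairs, the meiotic gene was the head in 4 (Terb1, Zglp1, Psmc3ip and Msh4) and the tail in 3 (Hormad1, Mei1 and Gm960), where the interval mostly sits at the neighbour's start. Terb1, which encodes a protein that tethers meiotic telomeres, had its interval at 60.2 in the Gata2cKO list and 85.4 in the Gata2WT list (Terb1/Nae1). Zglp1, a zinc finger regulator of the oogenic programme, had 36.3 in the Gata2cKO list and 42.6 in the Gata2WT list (Zglp1/Fdx2). The interval of Hormad1/Golph3l (67.7 in Gata2cKO, 69.5 in Gata2WT) lay with its summit 91 bp from the Golph3l start and 961 bp from the end of Hormad1, a HORMA domain protein gene, in the Gata2cKO list, and 54 and 998 bp from them in the Gata2WT list. The weakest meiotic member was Sapcd1/Msh5 (4.85 in Gata2cKO, 5.71 in Gata2WT), at the gene of a crossover factor.

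DNA repair genes were found at members in a similar proportion, and mostly head to head. Of 94 genes, 36 had a member (38.3%, 29.1 to 48.4), and 25 of them were in a head-to-head pair (26.6%), against 5.36% of all coding genes. The strongest in the Gata2cKO list was Toe1/Mutyh (128 in the Gata2cKO list and 167 in the Gata2WT list), at a DNA glycosylase that acts on adenine mispairs. Next came Mcm4/Prkdc (123 in Gata2cKO, 137 in Gata2WT), a subunit of the replicative helicase and the catalytic subunit of DNA-PK, and Fkbp3/Fancm (102 in Gata2cKO, 111 in Gata2WT), at a Fanconi anaemia helicase. Atm/Npat, the kinase that signals double-strand breaks and an activator of histone genes, had 100.3 in the Gata2cKO list and 115 in the Gata2WT list. Palb2/Dctn5, a partner of BRCA2 and a dynactin subunit, had 68.3 (Gata2cKO) and 85.9 (Gata2WT). Brca1/Nbr1 had 73.9 (Gata2cKO) and 99.9 (Gata2WT). At Wrap53/Trp53 the interval that covers the 97 bp gap was weak, with 4.21 in the Gata2cKO list and 5.22 in the Gata2WT list, and stronger intervals lay about 1 kb to either side. The repair genes with a member in the Gata2WT list alone were Topbp1 and Xrcc6, each by a weak tail-to-tail interval (3.27 for Topbp1/Cdv3 and 2.26 for Xrcc6/Snu13). The Topbp1/Cdv3 interval overlapped a Gata2cKO interval that did not come within 1 kb of both gene ends, and the Xrcc6/Snu13 interval overlapped none.

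Genes of mitochondria, proteostasis and RNA processing had members in 30.2% to 40.2% of cases. Of 154 genes of the mitochondrial ribosome and respiratory chain, 55 had one (35.7%, 28.6 to 43.5), 35 of them head to head. Examples were Ncapd2/Mrpl51 (120.1 in the Gata2cKO list and 134 in the Gata2WT list), Mrps12/Sars2 (95.2 in Gata2cKO, 129 in Gata2WT) and Mrpl47/Ndufb5 (90.4 in Gata2cKO, 98.5 in Gata2WT), in which both genes are mitochondrial. Of 92 tRNA synthetase and RNA processing genes, 37 had one (40.2%, 30.8 to 50.4), among them Qpctl/Snrpd2 (120.2 in Gata2cKO, 146 in Gata2WT), at a core spliceosomal protein, and Aars/Exosc6 (72.5 in Gata2cKO, 109 in Gata2WT), where the subunit of the RNA exosome is the head and alanyl-tRNA synthetase the tail. Of 63 chaperone and proteasome genes, 19 had one (30.2%, 20.2 to 42.4), among them Tsacc/Cct3 (107 in Gata2cKO, 120 in Gata2WT) and Hsp90b1/Ttc41 (101 in Gata2cKO, 144 in Gata2WT). Of 80 cytoplasmic ribosomal protein genes, 21 had one (26.3%, 17.9 to 36.8). These lists share pairs, so their shares are not independent.

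Lineage and signalling lists had shares at members below the 12.9% of all coding genes, but the lists are small and that share lies within the counting interval of each. Of 38 pluripotency genes 2 had one (5.26%, 1.46 to 17.3), namely Gbx2 in both lists and Zfp57 in the Gata2WT list alone, by a weak tail-to-tail interval (Zfp57/Mog, 2.62). Of 42 germ cell identity genes 3 had one (7.14%, 2.46 to 19.0): Mlc1/Mov10l1 and Ddx25/Pus3, head to head, and Dnd1/Hars, weak in both lists. MOV10L1 is a helicase of piRNA production and DND1 an RNA-binding protein that germ cells need to survive. None of 20 GATA factors and partners had a member, where 0 of 20 allows up to 16.1% by the Wilson interval. Of 48 signalling genes (retinoic acid, BMP and WNT) 2 had one (4.17%, 1.15 to 14.0), Rdh10 and Rxrb, an enzyme of retinoic acid synthesis and a retinoid receptor. Rxrb had a head-to-head member in both lists (Slc39a7/Rxrb, 36.2 in Gata2cKO, 39.1 in Gata2WT), and at its other end a weak interval in the Gata2WT list alone (Rxrb/Col11a2, 3.93). Of 24 markers of other ovary cells 2 had one in both lists (8.33%, 2.32 to 25.8), Amh (Amh/Jsrp1) and Cd68 (Cd68/Eif4a1). Replication and cell cycle genes, with 11 of 79 (13.9%, 7.96 to 23.2), were close to all coding genes, and so were epigenetic regulators, with 9 of 58 (15.5%, 8.38 to 26.9). Among these regulators, Zbtb12/Ehmt2 (10.7) and Commd3/Bmi1 (5.65), with the regulator as the head, were counted in the Gata2cKO list alone. Both intervals overlapped a Gata2WT interval that did not come within 1 kb of both gene ends.

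Of 22 pairs named from textbook knowledge as neighbours or shared promoters, 11 were members, each in both lists. The head-to-head members among them included Atm/Npat, Brca1/Nbr1, Mrps12/Sars2, Prr11/Ska2, Gart/Son (40.6 in the Gata2cKO list and 47.9 in the Gata2WT list), Psmb9/Tap1 (66.3 in Gata2cKO, 76.4 in Gata2WT) and Mrpl32/Psma2 (92.4 in Gata2cKO, 96.9 in Gata2WT). Among the others, Hspd1/Hspe1, Ppat/Paics, Surf1/Surf2 and both autosomal pairs of type IV collagen genes fell outside the rule because their annotated bodies overlap. The rule therefore leaves out shared promoters whose transcripts start inside one another.

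Few members were found in 1 list alone. Of members in the Gata2cKO list, 40 of 1415 overlapped no interval of the Gata2WT list (2.83%, 2.08 to 3.83), where the share was 19.7% over all Gata2cKO intervals. Of members in the Gata2WT list, 58 of 1436 overlapped no interval of the Gata2cKO list (4.04%, 3.14 to 5.19), where it was 28.5% over all Gata2WT intervals. Over other gene-end intervals it was 4.70% in the Gata2cKO list and 7.52% in the Gata2WT list. By layout, single-list members were 4 of 591 head-to-head, 9 of 389 head-to-tail and 10 of 60 tail-to-tail members in the Gata2cKO list, and 3 of 584, 18 of 400 and 24 of 78 in the Gata2WT list.

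These shares moved with strength. At a −log10 q of 2 to 5, 25.0% of members (16.6 to 35.8) and 25.4% of other gene-end intervals were in the Gata2cKO list alone, and 43.5% of members (33.5 to 54.1) and 43.8% of other gene-end intervals were in the Gata2WT list alone. At 5 to 10 the shares were 9.68% of members (5.18 to 17.4) and 5.35% of other gene-end intervals in the Gata2cKO list, and 11.1% (5.96 to 19.8) and 12.0% in the Gata2WT list. Below 2, 12 of 28 members and 178 of 348 other gene-end intervals stood alone in the Gata2cKO list, and 10 of 15 and 241 of 377 in the Gata2WT list. At 30 and over, none of 946 members in the Gata2cKO list and none of 1045 in the Gata2WT list stood alone, which allows shares of up to 0.404% (Gata2cKO) and 0.366% (Gata2WT). Members were weighted to that range, with 66.9% of those in the Gata2cKO list and 72.8% of those in the Gata2WT list at 30 and over, against 47.2% (Gata2cKO) and 53.0% (Gata2WT) of other gene-end intervals.

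**Figure D4:**
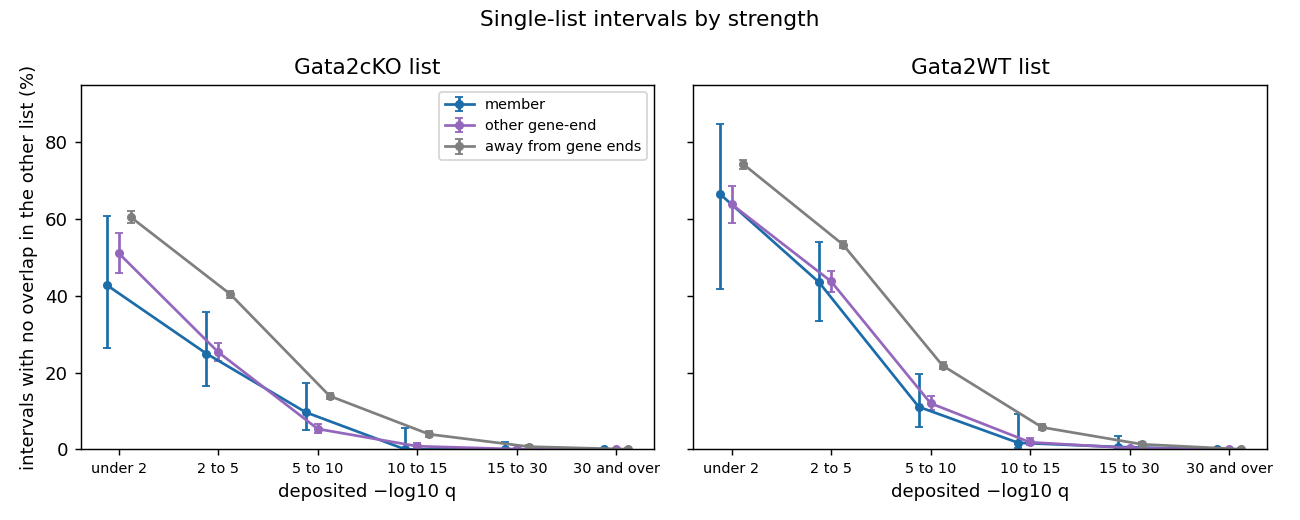
Share of intervals with no overlapping interval in the other list (y axis, percent) by deposited −log10 q (x axis), for members, other gene-end intervals and intervals away from gene ends, in the Gata2cKO list (left) and the Gata2WT list (right). Points are shares and error bars 95% Wilson intervals; at −log10 q of 2 to 5 members and other gene-end intervals lie together, at 25.0% and 25.4% in Gata2cKO and 43.5% and 43.8% in Gata2WT, and at 5 to 10 they stand at 9.68% and 5.35% in Gata2cKO and 11.1% and 12.0% in Gata2WT.

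Single-list members were small. Their median −log10 q was 3.39 with a summit pileup of 15 fragments in the Gata2cKO list and 3.005 with 14 fragments in the Gata2WT list. The strongest in the Gata2cKO list was the head-to-head member of Cenpj/Parp4, a centriole protein and an ADP-ribosyltransferase. It lay on chromosome 14 from 56575441 to 56575833, with a −log10 q of 9.56 and 32 fragments. Next came Sbk2/Sbk3 (8.495), a head-to-tail pair of kinase genes, and Rusc1/Fdps (7.91), at farnesyl diphosphate synthase of the sterol pathway. The strongest in the Gata2WT list was the head-to-tail member of Spag16/Vwc2l, with Vwc2l as the head and Spag16, a sperm axoneme protein gene, as the tail, on chromosome 1 from 70725689 to 70726046, with a −log10 q of 15.04 and 24 fragments. Next came Rgl3/Ccdc151 (10.5). Absence from a list means that a site did not pass the authors' threshold, and it is no evidence of closed chromatin.

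Many pairs counted in 1 list alone held an interval in both. Of the 50 pairs in the Gata2cKO list alone, 31 had a single-list interval, and for 19 the interval overlapped one of the Gata2WT list that ended beyond the 1 kb limit. Of the 79 in the Gata2WT list alone 49 had a single-list interval and 30 one that overlapped an interval of the Gata2cKO list. Rab5b/Cdk2 (−log10 q of 102 in the Gata2cKO list), Sec23a/Gemin2 (68.1) and Sarm1/Vtn (40.3) were of the second kind. Just inside the limit lay, for example, Saal1/Saa3 at 993 bp in the Gata2cKO list and 998 bp in the Gata2WT list, and just outside it Get1/Lca5l at 1001 bp in the Gata2cKO list and Get3/Trir at 1001 bp in the Gata2WT list. Of the 6 head-to-head pairs in 1 list alone, those with a single-list interval were Cenpj/Parp4 in the Gata2cKO list, and Ngef/Neu2 (1.97) and Cd160/Pdzk1 (3.50) in the Gata2WT list.

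Of the 571 head-to-head pairs with a gap of at most 1 kb, 17 had no interval within 1 kb of both ends in either list. Some had one farther off: with a window of 2 kb, 557 of the 571 had an interval in the Gata2cKO list and 558 in the Gata2WT list. For 10 of these 17 (58.8%), a stretch of 50 bases of a promoter recurred exactly at the promoter of a gene outside the pair, against 21 of 565 pairs found in both lists (3.72%). They included 2 pairs at the duplicated Srp54 genes, 2 histone pairs (H2bc23/H2ac23 and H2ac24/H4bc24) and Rnf151/Rps2. The comparison did not check genomic positions, so an overlapping promoter of a gene beside the pair would also count. For Rnf151/Rps2 the only other gene was Snhg9. Reads from stretches that are truly repeated can map to several places, and the filter applied to them is unknown here. Whether it bears on the missing intervals was not tested. The other 7 pairs held no such recurring stretch and included Stat5b/Stat5a, Best1/Rab3il1, Tfpi2/Gngt1, Mpig6b/Ly6g6c and the olfactory receptor pair Olfr181/Olfr183.

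Promoters of head-to-head genes were rich in CpG. Over the 1130 genes of the 565 head-to-head pairs found in both lists, the median observed to expected ratio of CpG was 0.842 (quartiles 0.706 and 0.970). It was 0.763 (0.586 and 0.906) for 8762 other coding genes with a promoter interval in both lists. For the 6221 others, which lacked a promoter interval in at least 1 list, it was 0.174. The GC content of head-to-head promoters was 62.0%, close to the 61.7% of the other open promoters. The annotated starts of a pair lay a median of 209 bp apart, and the windows of 419 pairs (74.2%) overlapped, so both genes of a pair often share the same letters. Counting intervals over the 1130 windows treat them as independent and are therefore too narrow.

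Motifs set head-to-head promoters apart from other open promoters in some cases and not in others. On either strand, the ETS letters CCGGAAG were in 27.4% of head-to-head windows (24.9 to 30.1) and 15.6% of other open promoters (14.8 to 16.4). They were in 2.68% of the 6221 promoters that lacked an interval in at least 1 list and 12.1% of all 17273 promoters. The YY1 letters AAGATGGC were in 9.29% (7.73 to 11.1), against 3.81%, 1.21% and 3.23%. The palindrome CTCGCGAG was in 4.07% (3.07 to 5.39), against 1.87%, 0.0804% and 1.33%. Counted by pair, 196 of 565 pairs (34.7%) had the ETS letters in at least 1 window and 73 (12.9%) the YY1 letters. The CCAAT letters were in 45.0% of head-to-head windows, against 37.9% of other open promoters, 40.8% of the 6221 and 39.6% of all. A closer counterpart was 369 genes that start at the gap of a head-to-tail pair found in both lists. None of them is in a head-to-head pair above. The ETS letters were in 23.8% of these (19.8 to 28.5) and CCAAT in 42.0% (37.1 to 47.1), so neither was particular to head-to-head promoters. The YY1 letters were in 4.34% (2.69 to 6.93) and CTCGCGAG in 1.90% (0.922 to 3.86). The counting interval of CTCGCGAG overlapped that of head-to-head windows, so it was not set apart from these genes either.

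Most other motifs searched were about as frequent in head-to-head as in other open promoters. The GC box GGGCGG was in 67.2% and 67.5%, the TATA letters TATAAA in 5.84% and 6.67%, and the GATA letters AGATAA in 5.22% and 5.88%; over all promoters these were 46.9%, 13.4% and 9.99%. The E box CACGTG was in 10.9% and 10.2% (8.01% of all) and the NRF1 letters GCATGCGC in 6.64% and 5.35% (3.64% of all). The CRE letters TGACGTCA were in 3.81% and 3.32% (2.36% of all) and the E2F letters TTTGGCGC in 1.33% and 0.913% (0.672% of all). The ZNF143 letters ACTACAATT were rare but more frequent in head-to-head windows, at 1.504% (0.941 to 2.40), against 0.719% (0.562 to 0.919) of other open promoters and 0.550% of all. They were in 0 of the 369 genes that start at a head-to-tail gap (up to 1.03%).

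**Figure D5:**
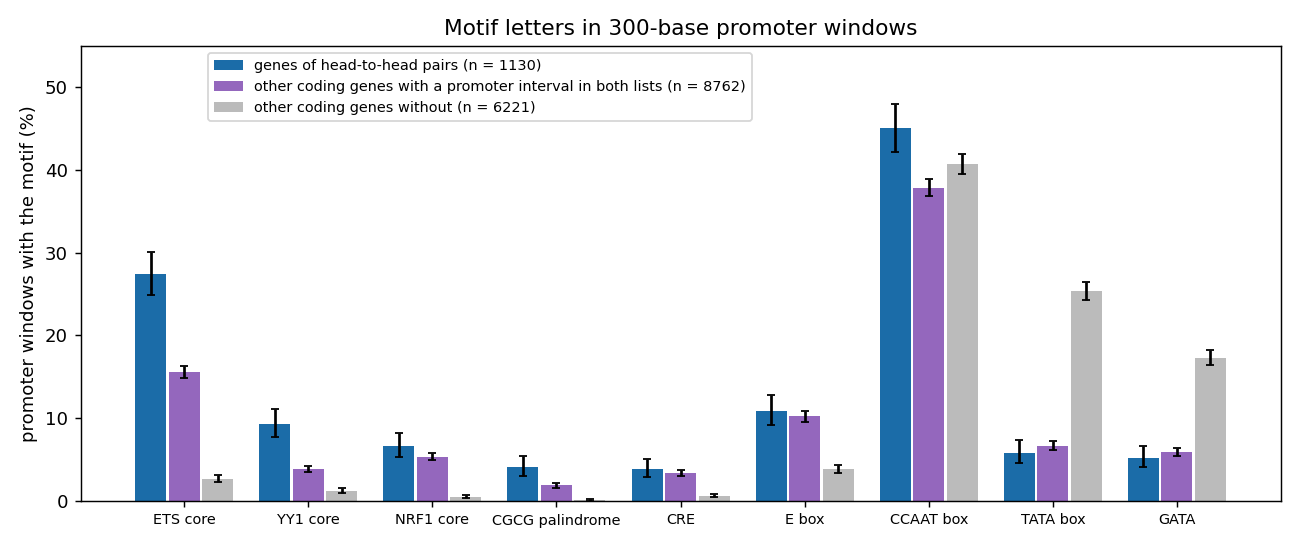
Share of 300-base promoter windows (y axis, percent) that hold the letters of each motif on either strand (x axis). The sets are genes of head-to-head pairs, other coding genes with a promoter interval in both lists and other coding genes without. The last set lacked a promoter interval in at least 1 list. Bars are shares and error bars 95% Wilson intervals; the ETS core stands at 27.4%, 15.6% and 2.68%, and the GATA letters at 5.22%, 5.88% and 17.3%.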

How the data were processed

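ATAC-seq peak lists of Gata2cKO and Gata2WT germ cells were used, 1 combined list per genotype from 2 samples each. Per the submitters' processing notes, reads were handled on the build GRCm38 (mm10) with MACS2 2.2.6, Bowtie2 2.3.5.1, bedtools 2.29.2, Picard 2.23.0, SAMtools and Trimmomatic 0.39, in an order and with parameters not given in the sources used here. Likewise unknown are the read shift for Tn5, the mapping and duplicate filters and the way the samples were combined. The deposited fold is the ratio of summit pileup to local background within a list, with 1 fragment added to each, and the deposited −log10 p and −log10 q rate that pileup against the background. The deposited score repeats the −log10 p, multiplied by 10 and cut to a whole number. These values are the authors' own, were not scaled between genotypes, and were used to describe and rank within a list.

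Rows with the same interval were collapsed to the summit with the highest −log10 p, which took 52236 Gata2cKO rows to 44139 intervals and 58357 Gata2WT rows to 49394 on the 19 autosomes and X. The summit pileup was solved from fold and −log10 p and was whole, within 0.001 in −log10 p, for 99.9955% and 99.996% of intervals; the step was tested on simulated data. A fragment is whatever unit the peak caller piled up. Gene ends and names came from the RefSeq gene table (GRCm38.p6; 21627 coding genes with coordinates). It has no strand, which was taken from the RefSeq promoter table for 17273 of them. Neighbouring (facing) pairs have no other coding gene between them. An overlap of 1 bp counted as shared. Promoter windows run from 250 bases before to 50 after the start. A promoter interval lies within 1 kb of that start. An interval near several pairs was given the layout of the facing pair with the narrowest gap.

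The members, gene lists, motifs and textbook pairs were chosen with earlier results of these data known. The genes named are the textbook pairs, the strongest single-list and shared members, those that reach most genes or are widest, up to 4 of each gene list by −log10 q with those in 1 list alone, and those at the limit; other pairs, among them Smc1b/Ribc2, Helq/Mrps18c, Rec114/Hcn4, Bhmg1/Fbxo46, Zglp1/Fdx2 and Palb2/Dctn5, were chosen after their values were seen. Alternatives varied the window, the use of summits, strength, list length, chromosomes, pairing and the overlap rule. A few pairs that this rule names are not reported here. No test between genotypes was possible. Python 3.11.15, NumPy 2.4.6, pandas 2.3.3, SciPy 1.17.1 and matplotlib 3.10.9 were used.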

Additional observations from a re-analysis of the deposited data

How the results depend on the processing

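With list lengths made equal, autosomes alone or facing neighbours alone, all 17 summaries of members and pairs stayed close to their values. With equal lengths the single-list share over all intervals was 22.8% for Gata2cKO and 23.1% for Gata2WT. With facing neighbours alone the layout shares could not move, since they count facing pairs only. Of the rest only the pair counts changed there, to 1328 in both lists and 77 in the Gata2WT list alone. Taking 1 gene per head-to-head pair, an alternative chosen after seeing the data, left all 4 motif shares within their counting intervals. A window of 0.5 kb gave, for Gata2cKO, a single-list share of 1.80%, a median width of 989 bp, a −log10 q of 50.7 and a pileup of 81 fragments, and for Gata2WT 2.05%, 1029 bp, 61.6 and 99 fragments; in either list 94.4% of head-to-head and 5.61% of tail-to-tail pairs had an interval. A window of 2 kb gave, for Gata2cKO, 4.83%, 889 bp, 38.0, 66 fragments, 103 pairs in that list alone and 27.3% of tail-to-tail pairs, and for Gata2WT 6.67%, 940 bp, 45.0, 78 fragments, 144 pairs and 29.9%. Summits in place of intervals gave, for Gata2cKO, a median −log10 q of 48.0 and 6.54% of tail-to-tail pairs, and for Gata2WT 58.9, a pileup of 96 and 7.71%. A −log10 q of at least 5 in both lists gave, for Gata2cKO, a single-list share of 1.45%, beside 14.51% of all Gata2cKO and 20.2% of all Gata2WT intervals, a width of 978 bp, a −log10 q of 48.8, a pileup of 79 and 7.24% of tail-to-tail pairs, and for Gata2WT 1010 bp, 59.0, 96 and 9.11%. A reciprocal overlap of at least 50% gave single-list shares of 5.87% for Gata2cKO members and 6.62% for Gata2WT members, beside 27.9% of all Gata2cKO and 35.5% of all Gata2WT intervals. Summits within 250 bp gave 8.62% of Gata2cKO and 9.33% of Gata2WT members, beside 26.9% of all Gata2cKO and 34.6% of all Gata2WT intervals, and rows counted singly gave 3.11% of Gata2WT members, beside 24.6% of all Gata2WT rows. The cause of these shifts was not tested. No paired analysis was possible because the lists combine the replicates. Depth per sample is unknown.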

Other observations

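Replication-dependent histone genes had the highest share at members of the gene groups counted. Of 67 such genes, 40 had a member in both lists (59.7%, 47.7 to 70.6) and none in 1 list alone, 22 of them in a head-to-head pair. H2ac15/H2bc15 had a −log10 q of 77.6 in the Gata2cKO list and 85.8 in the Gata2WT list over a gap of 163 bp, and H2ac22/H2bc22 had 74.7 (Gata2cKO) and 74.9 (Gata2WT) over 234 bp. Histone genes are near-identical copies, so reads could be shared among them. Other families in clusters varied. Of 57 protocadherin genes, 21 had a member in both lists (36.8%, 25.5 to 49.8). Among them are those reached together by the Pcdhgc5/Diaph1 interval, a single interval that reached 25 genes. The counting interval treats these genes as independent, which they are not, so this share cannot be set against those of other families. A member was found at 1 of 1110 olfactory receptor genes, none of 355 vomeronasal receptor genes and none of 53 keratin genes. It was found at 38 of 397 Zfp zinc finger genes (9.57%, 7.05 to 12.9). Olfactory receptors, vomeronasal receptors and keratins are genes of sensory neurons and epithelia.

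The share of members varied between chromosomes. Members were 5.30% of the intervals on chromosome 7 in the Gata2cKO list and 4.87% in the Gata2WT list, and 1.17% (Gata2cKO) and 0.993% (Gata2WT) on chromosome 18, the highest and lowest shares in each list. On the X chromosome they were 3.14% (Gata2cKO) and 2.63% (Gata2WT).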
